A study of Mus musculus with 22 samples.

Results

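The response of Trem2-knockout (KO) microglia to the demyelinating agent cuprizone was examined on mouse gene arrays. The 5 arrays were taken by their labels, with 3 for KO mice fed cuprizone (KO cuprizone) and 2 for KO mice on normal chow (KO control), out of 22 arrays in the series. KO cuprizone mice lacked Trem2 and, per the labels, ate normal chow for 2 weeks and then feed with 0.2% cuprizone for 4 weeks. KO control mice lacked Trem2 and are given no dietary additive by the labels. The labels also describe a longer cuprizone arm, but the array labels say 4 weeks. WT cuprizone (3 arrays) and WT control (2 arrays), wild-type mice on the same 2 diets, are contrasted only where the genotypes are compared. The remaining arrays, from mice given the tocopherol mixture Covi-Ox, enter the tested differences only through the estimate of spread. All these arrays also enter the ranges given over the other arrays of the series and the principal axes. All cells were sorted from whole brain as positive for CD11b, CD45 and F4/80, a gate that also admits other macrophages. No strain, age, sex or type of Trem2 deletion is given by the labels used here. Nor do they say whether each array is a separate animal, so a p-value reflects no more than the spread among these arrays, which may be technical.

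TREM2 is a surface receptor of myeloid cells that binds lipids and lipoproteins and signals through the adaptor DAP12, encoded by Tyrobp. Cuprizone binds copper and kills the oligodendrocytes that make myelin, and microglia then gather and take up myelin debris. Around damaged myelin and amyloid, wild-type microglia acquire a program called disease-associated microglia (DAM). Its early genes are known not to need Trem2 and its late genes are known to depend on it.

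The deposited values were probe set intensities, and every level below is a log2 intensity and every difference a log2 difference, KO cuprizone minus KO control, unless stated. Array medians lay between 5.17 and 5.27, so a level near 5 is close to the middle of all probe sets. Trem2 read 6.54, 6.59 and 6.54 on the KO cuprizone arrays and 6.49 and 6.45 on the KO control arrays, against 10.34 and 10.38 on the WT control arrays. KO control lay 3.89 ± 0.14 (SE) below WT control for Trem2, with a log2 difference of -3.89 and an adjusted p of 2.17e-13 (limma). The defining microglial genes were bright on all 5 KO arrays. P2ry12 read 11.70, 11.83 and 11.86 in KO cuprizone and 11.80 and 11.77 in KO control, and Csf1r read 11.96, 12.02 and 11.98 in KO cuprizone and 12.04 and 12.01 in KO control.

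The arrays of each KO group differed among themselves. The mean of 36 immediate-early genes, which are induced within minutes of a stimulus and also by tissue dissociation, was 9.47, 8.55 and 8.60 on KO cuprizone arrays 1, 2 and 3 and 9.45 and 9.42 on the KO control arrays. WT cuprizone 3 was also low, at 8.34, and the other 19 arrays of the series lay between 9.42 and 9.70. KO cuprizone 1 differed 2-fold or more from array 2 at 154 genes and from array 3 at 177 genes, while arrays 2 and 3 differed at 43. The 2 KO control arrays differed 2-fold or more at 268 genes. On the 3rd principal axis of all 22 arrays (9.27% of the variance) KO control 2 stood at 31.5. The others of the 10 arrays in the 4 groups compared lay between -13.8 and 4.5. Results below are therefore given by array.

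Of 11830 genes tested, 5 (0.0423%) passed an adjusted p under 0.05 (limma with Benjamini-Hochberg adjustment), 4 lower (0.0338%) and 1 higher (0.00845%) in KO cuprizone. Before adjustment 1591 genes (13.4%) had a p under 0.05, 811 of them higher (6.86%) and 780 lower (6.59%). In 1257 genes (10.6%) all 3 KO cuprizone arrays lay above both KO control arrays, and in 1305 (11.0%) all lay below. The median gene differed by 0.00, the central 90 percent of genes lay between -0.38 and 0.41, and 69 genes differed by 2-fold or more in their means, 37 up and 32 down.

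Chordc1, which encodes a cochaperone of HSP90 that is itself heat-inducible, read 7.48, 7.26 and 7.37 in KO cuprizone and 8.52 and 8.39 in KO control. The arrays of each group lay within 0.22 of each other and the groups did not overlap. Chordc1 fell by 1.08 ± 0.19 (SE), with a log2 difference of -1.08 (adjusted p = 0.0428, limma). In the other 17 arrays Chordc1 ranged from 7.02 to 8.36, so the 3 KO cuprizone arrays lay inside that range and both KO control arrays above it. The difference in WT was -0.62 (adjusted p = 0.0902), and the difference between genotypes was -0.46 ± 0.27 (adjusted p = 0.596).

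Kat8 encodes the histone H4 acetyltransferase of the MSL and NSL complexes. It read 7.16, 7.34 and 6.92 in KO cuprizone and 7.84 and 8.49 in KO control. All KO cuprizone arrays were lower, by unequal steps, since KO control 2 stood well above KO control 1. Kat8 fell by 1.03 ± 0.18, with a log2 difference of -1.03 (adjusted p = 0.0428). Among 13 tested members of these 2 complexes, 3 were lower without overlap against 11.0% of all genes, namely Kat8, Msl2 at -0.37 ± 0.11 and Wdr5 at -0.20 ± 0.14, and the list median was -0.10.

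Cdc5l, a core spliceosome component, read 7.88, 8.69 and 8.30 in KO cuprizone and 9.21 and 9.82 in KO control. The groups did not overlap and both varied by more than 0.5. This probe set fell by 1.22 ± 0.20, with a log2 difference of -1.22 (adjusted p = 0.0428). The gene's 3 other probe sets differed by -0.46, -0.17 and -0.03, so the fall was seen in 1 of 4 probe sets at this size. Averaged over its probe sets, Cdc5l differed by -0.47 (adjusted p = 0.291). The gene Cdc5l is listed on chromosome 17, as is the deleted Trem2 locus, and both groups compared lack Trem2. The genome position of each of the 4 probe sets was not examined. Of 32 splicing and nuclear speckle genes 5 were lower without overlap and 0 higher, against 11.0% and 10.6% of all genes, with a median of -0.16 in KO and of -0.28 in WT.

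Stxbp4, a syntaxin-binding protein of vesicle traffic, had the largest difference of the 5. It read 5.12, 5.20 and 4.19 in KO cuprizone and 6.70 and 7.99 in KO control. The KO cuprizone values lay inside the 3.85 to 5.81 range of the other 17 arrays, whereas both KO control arrays stood above that range and differed from each other by more than 1 unit. Stxbp4 fell by 2.51 ± 0.45 by this probe set, with a log2 difference of -2.51 (adjusted p = 0.049), and its other probe set read near 4.86 in both groups with a difference of -0.00, and the average of both probe sets differed by -1.25 (adjusted p = 0.0611). Zfp512b, a zinc finger protein, was the only called gene that rose. It read 5.97, 5.81 and 5.96 in KO cuprizone and 5.28 and 5.36 in KO control, a rise of 0.59 ± 0.10 (adjusted p = 0.0428). Both KO control arrays lay below the 5.70 to 5.95 range of the other 17 arrays.

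These 5 calls depended on single arrays. With KO control 1 left out, 765 genes were called and all 5 were among them. With KO control 2 left out, 0 genes were called by limma and 808 had an unadjusted p under 0.05. Dropping KO cuprizone 1 gave 205 calls, the 5 included. Dropping KO cuprizone 2 gave 4 calls with 3 of the 5 kept, and dropping KO cuprizone 3 gave 1 call with 0 of the 5 kept. Leaving out WT control 1, WT control 2, WT cuprizone 1 or WT cuprizone 2, which enter only the shared spread, left 0 calls, with 1547 to 1604 genes at an unadjusted p under 0.05 and the 5 genes at adjusted p values of up to 0.0636. Leaving out WT cuprizone 3 gave 44. Among genes with an unadjusted p under 0.05 and no overlap, KO control 2 was the control array farther from KO cuprizone in 78.1% of 566 higher genes and in 71.9% of 576 lower genes. The part of that array in these results was not tested.

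**Figure D1:**
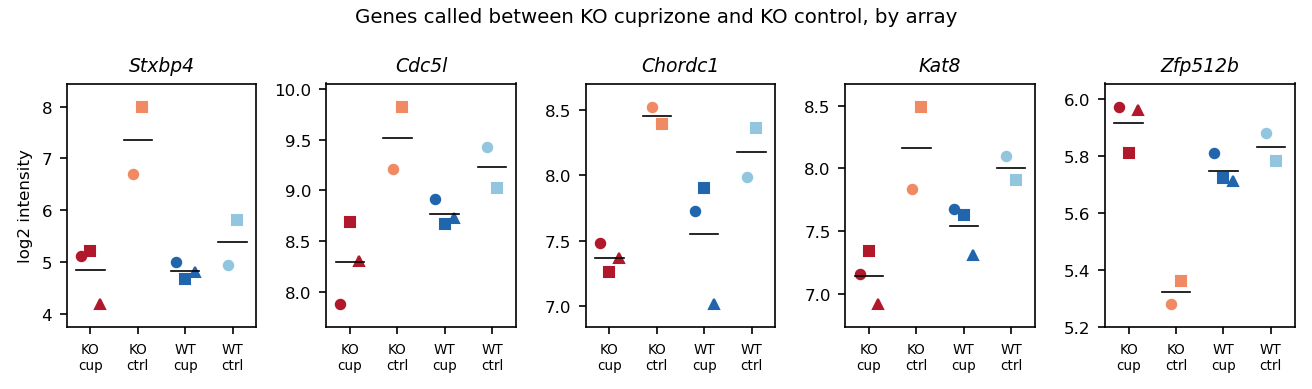
Log2 intensity (vertical axis) of the 5 genes called between KO cuprizone and KO control, on each array of KO cuprizone, KO control, WT cuprizone and WT control (circle, square and triangle for arrays 1, 2 and 3, bars for group means). For Chordc1 and Stxbp4 both KO control arrays lie above every WT array shown, and for Zfp512b below.

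The late DAM genes had higher values in KO cuprizone in many members, none of which passed the test (limma). At an unadjusted p under 0.05, 14 were higher, against 6.86% of all genes. Of 31 tested members, 16 were higher without overlap and 0 lower, against 10.6% and 11.0% of all genes. The median was 0.33, with 0.24 for KO cuprizone 1 alone and 0.36 for arrays 2 and 3, against a median of 0.00 over all genes. In WT the median of the same list was 1.66 with 25 members called higher (1.80% of all genes were), but the list was drawn up with WT results known, so that count is not independent evidence. Some late DAM genes also mark myeloid cells other than microglia, and in sorted bulk RNA fewer cells in a state and less RNA per cell cannot be told apart.

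Cst7, which encodes cystatin F, an inhibitor of lysosomal cathepsins, read 7.30, 8.15 and 8.58 in KO cuprizone and 6.20 and 5.80 in KO control. Each KO cuprizone array was more than 1 unit above the higher control, with array 1 the lowest. The difference was 2.01 ± 0.40, or 4.04-fold, with an adjusted p of 0.0747, which passed the threshold in 3 of 16 alternative settings. In WT, Cst7 read 9.84, 10.16 and 11.75 on cuprizone and 6.19 and 6.77 on control, a difference of 4.10 (adjusted p = 4.67e-06). The genotype difference of -2.09 ± 0.57 had an adjusted p of 0.184.

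Clec7a, the beta-glucan receptor Dectin-1, read 6.55, 6.58 and 6.77 in KO cuprizone and 5.74 and 5.58 in KO control. The groups were well separated, and the difference was 0.97 ± 0.21, or 1.96-fold (adjusted p = 0.0860). Axl, a receptor for apoptotic cells, read 6.42, 6.66 and 6.56 in KO cuprizone and 5.87 and 5.83 in KO control, a difference of 0.70 ± 0.24 (adjusted p = 0.236). Lpl, lipoprotein lipase, read 5.51, 5.30 and 5.98 in KO cuprizone and 4.66 and 4.92 in KO control, close to the array medians, with a difference of 0.80 ± 0.30 (adjusted p = 0.263). None of these 3 groups of arrays overlapped. Fam20c, a kinase of secreted proteins, differed by 0.48 ± 0.13 (adjusted p = 0.135) and Cd63, a tetraspanin of late endosomes, by 0.44 ± 0.12 (adjusted p = 0.135), both without overlap. Cox6a2, a cytochrome oxidase subunit, read 8.22, 8.27 and 8.03 in KO cuprizone and 7.06 and 7.05 in KO control, and its difference of 1.12 ± 0.43 had an adjusted p of 0.273. When the model also held each array's immediate-early level, the differences were 1.31 for Cst7, 0.67 for Clec7a, 0.30 for Axl and 0.43 for Lpl, and without the 3 arrays low in immediate-early genes, which leaves KO cuprizone 1 alone, they were 1.30, 0.89, 0.57 and 0.72.

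Other late genes lay closer to their control level in KO cuprizone. Mmp12, macrophage elastase, read 4.77, 4.75 and 5.01 in KO cuprizone and 4.82 and 4.73 in KO control, below the array medians in both. Its difference was 0.07 ± 0.15 in KO and 2.89 in WT. Gpnmb, a glycoprotein of lipid-laden macrophages, read 4.74, 5.65 and 5.23 in KO cuprizone and 4.77 and 4.99 in KO control, a difference of 0.32 ± 0.34, and the arrays overlapped. Itgax, the integrin CD11c, differed by 0.38 ± 0.25 and Lgals3, galectin-3, by 0.20 ± 0.14, with values of 5.40, 5.50 and 5.16 in KO cuprizone against 4.96 and 4.98 in KO control for Itgax. The Itgax difference was 0.06 when the model held the immediate-early level.

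The cuprizone difference itself differed between the genotypes at 27 genes (0.228%), 22 of them with the more negative difference in KO and 5 with the more positive (limma, adjusted p under 0.05). All 22 had a positive difference in WT, and 11 belonged to the late DAM list, which holds 31 of the 11830 genes tested. That list was drawn up with WT results known, and the WT difference enters this test, so the 11 are not independent evidence. Mmp12 had a genotype difference of -2.82 ± 0.21 (adjusted p = 2.66e-07), Fam20c of -2.10 ± 0.18 (adjusted p = 2.78e-06), Lgals3 of -1.98 ± 0.20 (adjusted p = 2.15e-05) and Itgax of -2.88 ± 0.36 (adjusted p = 0.000375). Axl at -2.19 ± 0.34, Clec7a at -1.85 ± 0.29 and Lpl at -2.56 ± 0.43 also passed, with adjusted p values of 0.00729, 0.00729 and 0.0117. Alcam, an adhesion molecule, was the one gene of the 8 strongest with a negative value in KO. It read 4.94, 4.82 and 4.90 in KO cuprizone and 5.34 and 5.35 in KO control, a difference of -0.46 ± 0.16, against 0.95 in WT, and the genotype difference was -1.41 ± 0.23 (adjusted p = 0.00979). The 5 genes in the other direction were Eif2s3y, Clec12a, Zranb1, Csmd3 and Maml2, of which the last 3 are named after their values were seen. Dropping WT control 1 gave 6 such genes and dropping WT control 2 gave 8. The count was 265 when KO control 1 was dropped and 7 when KO control 2 was, and it was 14 in the absence of KO cuprizone 2 and 15 in that of KO cuprizone 3.

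WT cuprizone differed from WT control at 296 called genes (2.50%), and these were followed in KO as 2 groups. Both groups were chosen by their WT difference on these same WT arrays. Their WT medians and genotype differences are therefore partly set by that choice. Of 213 genes called higher in WT cuprizone (1.80% of all genes), 179 had a positive difference in KO, against 6008 of all 11830 genes. Of the 213, 83 (39%) were higher without overlap, against 10.6% of all genes. None of the 213 was called in KO, and 64 were higher in KO cuprizone at an unadjusted p under 0.05 (limma), against 6.86% of all genes. Their median was 0.24 in KO and 0.92 in WT, and the genotype difference was called for 21. Of 83 genes called lower in WT cuprizone, 61 had a negative difference in KO and 22 (26.5%) were lower without overlap against 11.0% of all genes (WT called 0.702% of all genes lower), with a median of -0.14 in KO and -0.63 in WT. KO cuprizone 1, the array not low in immediate-early genes, was above both KO control arrays at 61% of the first group, against 30.4% of all genes, and below both at 37.3% of the second, against 29.0%.

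**Figure D2:**
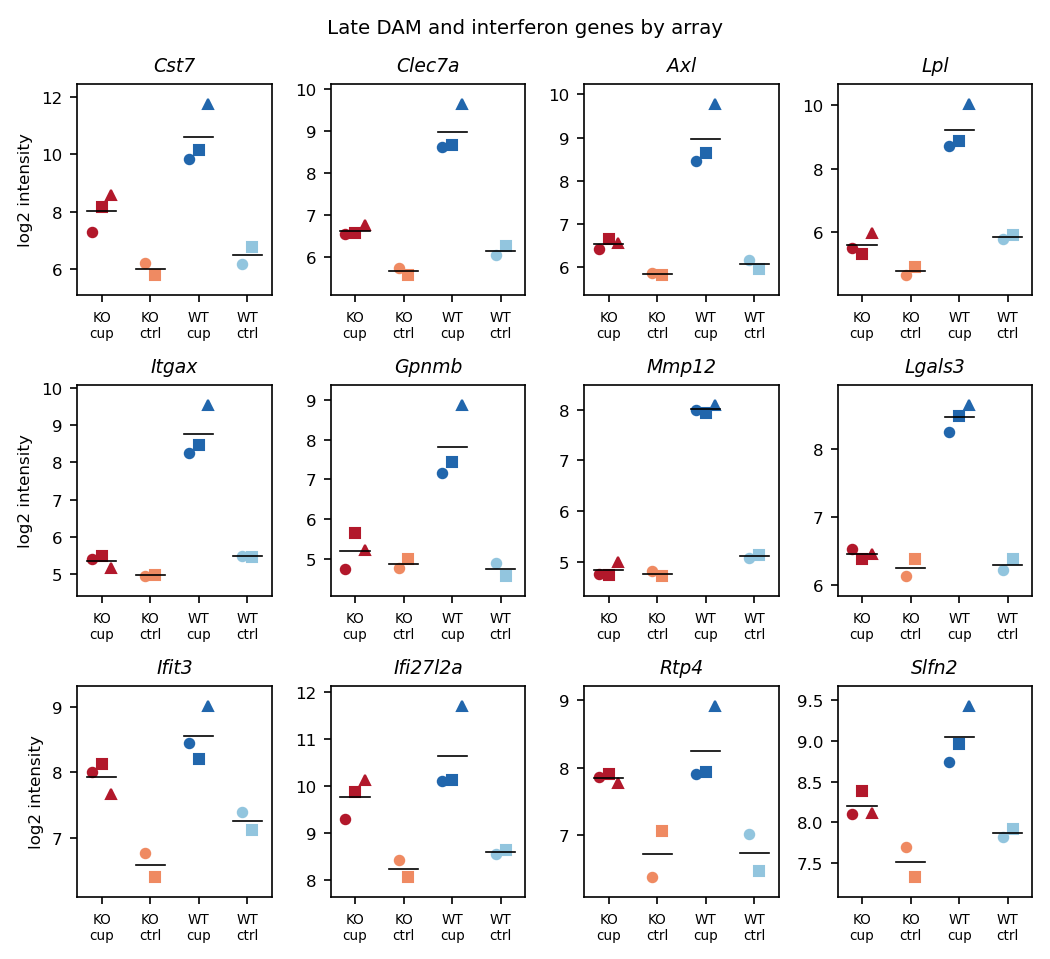
Log2 intensity of 8 late DAM genes (upper 2 rows) and 4 interferon-response genes (bottom row) on each array of KO cuprizone, KO control, WT cuprizone and WT control (circle, square and triangle for arrays 1, 2 and 3, bars for group means). For Cst7, Clec7a, Axl and Lpl the KO cuprizone arrays lie above KO control and below WT cuprizone, while for Mmp12 they lie at the KO control level.

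Interferon-response genes encode antiviral effectors and regulators induced through STAT and IRF factors. Of 32 tested, 15 were higher in KO cuprizone without overlap (10.6% of all genes) and 0 lower (11.0% of all genes). The median was 0.41, with 0.40 for KO cuprizone 1 alone and 0.30 for arrays 2 and 3, and it was 0.32 against KO control 1 alone and 0.42 against KO control 2 alone. The WT median was 0.68, with 15 members called higher (1.80% of all genes were). None of the 32 was called in KO or for the genotype difference, whose median was -0.40. KO cuprizone 1 alone was above both controls in 25 of 32 genes (30.4% of all genes).

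Ifit3, which encodes an antiviral protein of the IFIT family, read 8.01, 8.13 and 7.67 in KO cuprizone and 6.78 and 6.41 in KO control. All 3 arrays stood clear of both controls. The difference was 1.35 ± 0.25, or 2.54-fold (adjusted p = 0.0616), the WT difference was 1.29 (adjusted p = 0.00763), and the genotype difference was 0.06 ± 0.36 (adjusted p = 0.976). Ifi27l2a, a small interferon-induced mitochondrial membrane protein, read 9.29, 9.87 and 10.12 in KO cuprizone and 8.42 and 8.07 in KO control, a difference of 1.52 ± 0.34 (adjusted p = 0.0916). Rtp4, an interferon-induced chaperone of receptor transport, read 7.86, 7.91 and 7.77 in KO cuprizone and 6.39 and 7.06 in KO control, a difference of 1.12 ± 0.27 (adjusted p = 0.128). For Rtp4 the 3 KO cuprizone arrays lay closer together than the 2 controls. Slfn2, a Schlafen protein of immune cell quiescence, differed by 0.69 ± 0.17 (adjusted p = 0.128), and its KO cuprizone values of 8.10, 8.38 and 8.12 lay above the KO control values of 7.70 and 7.33.

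Heat shock proteins and their cochaperones, which fold client proteins and are induced through HSF1, were on balance lower in KO cuprizone. Of 31 tested, 16 were lower without overlap (11.0% of all genes) and 0 higher (10.6% of all genes), and Chordc1 alone was called. The median was -0.39 in KO and -0.15 in WT. It was -0.18 for KO cuprizone 1 alone and -0.49 for arrays 2 and 3. KO cuprizone 1 alone lay below both controls in 18 of 31 genes, against 29.0% of all genes. Heat shock and immediate-early genes are both known to respond to cell handling. The part of the arrays low in immediate-early genes in this difference was not tested for the list as a whole.

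Hsph1, an HSP110 nucleotide exchange factor, read 6.82, 5.89 and 5.66 in KO cuprizone and 7.61 and 7.39 in KO control. Arrays 2 and 3 were the lowest and array 1 lay between them and the controls. The difference was -1.37 ± 0.32 (adjusted p = 0.106). Bag3, a cochaperone of selective autophagy, read 8.14, 7.97 and 7.74 in KO cuprizone and 8.53 and 8.71 in KO control, with a difference of -0.68 ± 0.16 (adjusted p = 0.109). Cacybp, a ubiquitin ligase adaptor that also binds HSP90, read 7.04, 7.10 and 7.42 in KO cuprizone and 7.77 and 7.98 in KO control, a difference of -0.69 ± 0.17 (adjusted p = 0.125). For Cacybp KO cuprizone 1 was the lowest of the 3 cuprizone arrays, and for Chordc1 it was the highest. Hspb1, the small heat shock protein HSP27, read 6.22, 5.24 and 5.35 in KO cuprizone and 6.40 and 7.22 in KO control, a difference of -1.21 ± 0.31 (adjusted p = 0.130). The inducible Hspa1a, encoding HSP70, followed the immediate-early genes instead, with 8.92, 6.66 and 6.49 in KO cuprizone and 8.76 and 8.89 in KO control. Its KO cuprizone 1 value was level with the controls and arrays 2 and 3 were over 2 units lower, so the groups overlapped. The differences of Chordc1, the cochaperone gene Dnajb1 and Hspa1a were -1.08, -0.97 and -1.47. When the model also held each array's immediate-early level, they were -0.82, -0.37 and -0.33, and Chordc1 had an adjusted p of 0.118 (limma). Without the 3 arrays low in immediate-early genes, which leaves KO cuprizone 1 alone, they were -0.98, -0.43 and 0.09.

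**Figure D3:**
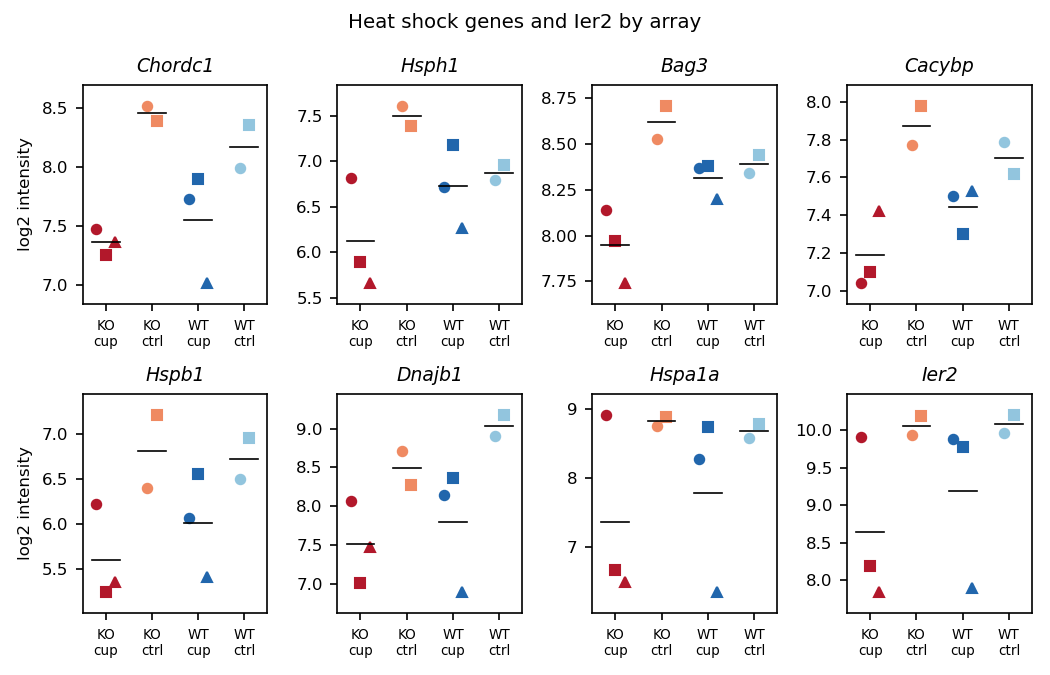
Log2 intensity of 7 heat shock and cochaperone genes and the immediate-early gene Ier2 on each array of KO cuprizone, KO control, WT cuprizone and WT control (circle, square and triangle for arrays 1, 2 and 3, bars for group means). KO cuprizone 1 is the lowest of its group for Cacybp, and level with the controls for Hspa1a.

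Promoter sequences are shown for Chordc1 and Hsph1, the heat shock genes with the smallest adjusted p values, and for Ifit3, the interferon gene with the smallest. Each is the RefSeq window of 250 bases before to 50 after the gene's start in assembly GRCm38.p6, printed 5′ to 3′ on the gene's strand. Chordc1 is at chr9:18292017-18292316 on the plus strand, Hsph1 at chr5:149636287-149636586 on the minus strand and Ifit3 at chr19:34583279-34583578 on the plus strand. Capitals mark matches, on either strand, to GAANNTTC, a pair of the units of a heat shock element, in the first 2 windows and to GAAANNGAA, the core of an interferon response element, in the third window.
Chordc1: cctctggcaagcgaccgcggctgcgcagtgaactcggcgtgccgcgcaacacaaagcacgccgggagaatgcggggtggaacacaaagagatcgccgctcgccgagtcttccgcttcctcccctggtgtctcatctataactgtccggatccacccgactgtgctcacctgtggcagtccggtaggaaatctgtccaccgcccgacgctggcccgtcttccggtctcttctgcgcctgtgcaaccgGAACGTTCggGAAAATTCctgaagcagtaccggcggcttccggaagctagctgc
Hsph1: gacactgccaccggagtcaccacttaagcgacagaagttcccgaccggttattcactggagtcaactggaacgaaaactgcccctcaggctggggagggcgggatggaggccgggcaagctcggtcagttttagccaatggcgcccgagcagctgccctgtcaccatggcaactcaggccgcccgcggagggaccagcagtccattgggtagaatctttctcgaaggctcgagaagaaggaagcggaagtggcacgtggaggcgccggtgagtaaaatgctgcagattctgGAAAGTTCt
Ifit3: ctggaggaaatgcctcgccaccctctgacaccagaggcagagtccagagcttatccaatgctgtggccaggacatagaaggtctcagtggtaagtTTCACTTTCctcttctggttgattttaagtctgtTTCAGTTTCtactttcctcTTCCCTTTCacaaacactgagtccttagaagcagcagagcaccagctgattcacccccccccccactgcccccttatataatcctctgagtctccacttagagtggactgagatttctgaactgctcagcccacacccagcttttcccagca

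The Chordc1 window held 2 copies of GAANNTTC, which lie at the annotated start and are 2 bases apart. The Hsph1 window held 1 copy, downstream of the start, and the Ifit3 window held 3 separate copies of GAAANNGAA upstream of it. GAANNTTC was present in 10 of 27 heat shock genes with a window (37%), against 9.04% of all genes with a window. The 10 include Bag3 and Hspb1, which were lower without overlap, but also the mitochondrial chaperonins Hspd1 and Hspe1, named after their values were seen, which differed by 0.04 ± 0.14 and 0.16 ± 0.15 with overlapping arrays. GAAANNGAA was present in 13 of 24 interferon-response genes with a window (54.2%), against 9.76% of all genes with a window. In the late DAM list the 2 motifs were present in 1 of 24 genes (4.17%) and 2 of 24 (8.33%). The motifs are short and can overlap each other, and a match describes the letters of a window and is not a site.

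Immediate-early genes had a median of -0.51, and 14 of 36 were lower without overlap against 11.0% of all genes, with 1 higher against 10.6%. The median was -0.00 for KO cuprizone 1 alone and -0.74 for arrays 2 and 3. Ier2, a growth-factor-inducible nuclear protein, read 9.91, 8.19 and 7.84 in KO cuprizone and 9.94 and 10.19 in KO control. KO cuprizone 1 was thus within 0.05 of a control and arrays 2 and 3 were well below. Fos, a subunit of AP-1, read 11.58, 10.84 and 11.12 in KO cuprizone and 11.85 and 11.88 in KO control, a difference of -0.68 ± 0.29 (adjusted p = 0.311). Ier3, a survival regulator, differed by -1.39 ± 0.46 (adjusted p = 0.221). Nfkbia, the NF-kB inhibitor that NF-kB itself induces, differed by -1.10 ± 0.36 (adjusted p = 0.218). It belongs to the inflammatory list described next, as its 1 member lower without overlap.

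Inflammatory cytokines and chemokines split the KO cuprizone arrays the most among the lists, by their medians. Over 28 genes the median was 0.33 for KO cuprizone 1 alone and -0.77 for arrays 2 and 3, and 2 were higher and 1 lower without overlap, against 10.6% and 11.0% of all genes. Il1b read 9.24, 5.56 and 5.63 in KO cuprizone and 7.86 and 7.05 in KO control. Array 1 was above both controls and arrays 2 and 3 below both. Cxcl2, a neutrophil attractant, read 10.12, 6.25 and 6.22 in KO cuprizone and 9.86 and 9.65 in KO control, and Ptgs2, cyclooxygenase-2, read 7.87, 4.76 and 5.42 in KO cuprizone and 7.31 and 6.62 in KO control. The 2 members higher on all 3 arrays were Cxcl9, an interferon-gamma-induced chemokine, at 1.03 ± 0.31 (adjusted p = 0.185), and Ccl9, at 0.58 ± 0.17 (adjusted p = 0.159). The noncoding RNA Rmrp ran the other way, at 8.24, 10.55 and 10.55 in KO cuprizone and 8.92 and 8.93 in KO control.

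**Figure D4:**
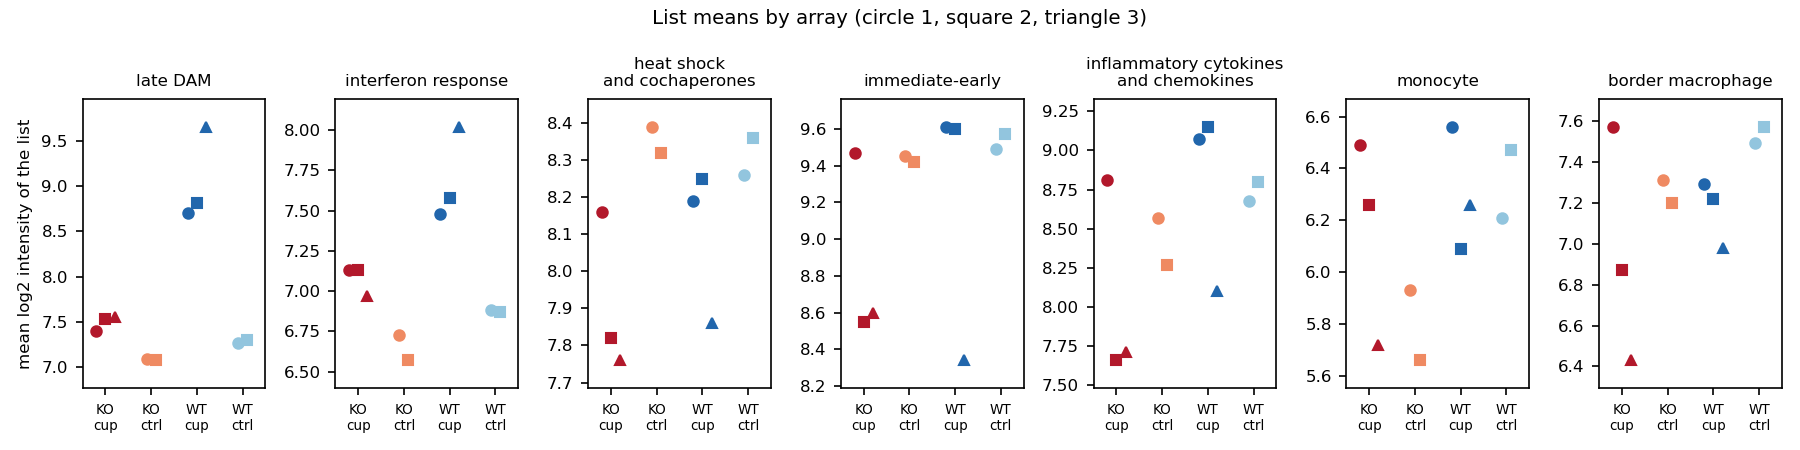
Mean log2 intensity (vertical axis) of 7 gene lists on each array of KO cuprizone, KO control, WT cuprizone and WT control (circle, square and triangle for arrays 1, 2 and 3). The late DAM and interferon means of all 3 KO cuprizone arrays lie above both KO control arrays, whereas the immediate-early mean separates KO cuprizone 1 at 9.47 from arrays 2 and 3 at 8.55 and 8.60.

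Lysosomal genes had a median of 0.18 in KO and 0.21 in WT. Of 45 tested, 16 were higher without overlap (10.6% of all genes) and 3 lower (11.0% of all genes), and none was called. The lists share members, and a shared gene is counted in each. Among the 16, Cd63, Ctsz, Ctsl and Cd68 are also late DAM genes, and Ctsb and Ctsd are also early DAM genes. Ctsz, Ctsl and Cd68 are named only for this overlap of lists. The lysosomal median was 0.08 for KO cuprizone 1 alone, and 0.11 against KO control 1 and 0.25 against KO control 2. Idua, an enzyme of glycosaminoglycan breakdown, read 7.59, 7.83 and 7.62 in KO cuprizone and 7.29 and 6.64 in KO control, a difference of 0.72 ± 0.19 (adjusted p = 0.135). Ctsb, the protease cathepsin B, read 11.26, 11.47 and 11.45 in KO cuprizone and 11.11 and 10.82 in KO control, and its difference of 0.43 ± 0.11 (adjusted p = 0.128) was near the WT difference of 0.51. Ids, which acts in the same pathway as Idua, differed by -0.44 ± 0.13 (adjusted p = 0.159). The early DAM list, which includes Ctsb, had a median of 0.14 in KO and 0.16 in WT. All 10 tested members were positive, by 0.06 to 0.43, against 6008 of all 11830 genes. Of the 10, 4 were higher without overlap, against 10.6% of all genes. One of the 4 is the deleted gene Trem2 itself, by its residual signal, and the others were Ctsb, the iron-storage chain Fth1 and the protease Ctsd, the last named after its values were seen. Apoe, another member and the main lipoprotein of microglia and astrocytes, read 12.25, 11.78 and 11.97 in KO cuprizone and 11.71 and 12.01 in KO control, with overlapping groups and a difference of 0.14 ± 0.15.

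In the glycolysis and hypoxia list 8 of 21 were higher without overlap and 1 lower, against 10.6% and 11.0% of all genes. The list median was 0.19 in KO and 0.52 in WT. Mif, a cytokine whose transcript responds to hypoxia, read 10.10, 10.04 and 10.08 in KO cuprizone and 9.67 and 9.12 in KO control, a difference of 0.68 ± 0.21 (adjusted p = 0.198). Pfkfb3, a regulator of glycolytic flux, differed by 0.58 ± 0.16 (adjusted p = 0.135), and Hif1a, also counted as a late DAM gene, by 0.43 ± 0.14 (adjusted p = 0.218). Of 32 oxidative phosphorylation genes 9 were higher without overlap and 2 lower, with a median of 0.10, against 10.6% and 11.0% of all genes. Against the same shares of all genes, 4 of 17 cholesterol efflux genes were higher and 1 lower (median 0.19). Of 19 cholesterol synthesis genes 2 were higher and 0 lower (median 0.06). Of 17 lipid uptake and storage genes 1, the late DAM gene Lpl, was higher and 1 lower (median -0.03), again against 10.6% and 11.0%. Sc5d, a late enzyme of cholesterol synthesis, had the smallest p of these 3 lists, with 7.03, 6.94 and 7.33 in KO cuprizone and 6.75 and 5.83 in KO control and a difference of 0.81 ± 0.20 (adjusted p = 0.128). KO control 2 alone was nearly 1 unit below KO control 1 for this gene.

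Antigen presentation genes were uneven. Of 10 MHC class II pathway genes 3 were higher without overlap and 1 lower, against 10.6% and 11.0% of all genes, with a median of 0.12. H2-Aa, a class II chain, read 10.16, 10.27 and 9.78 in KO cuprizone and 9.54 and 9.12 in KO control, a difference of 0.74 ± 0.18 (adjusted p = 0.128). H2-Eb1, another chain, read 9.20, 9.15 and 8.50 in KO cuprizone and 8.22 and 8.33 in KO control, a difference of 0.67 ± 0.19 (adjusted p = 0.137) against -0.01 in WT, with a genotype difference of 0.68 ± 0.26 (adjusted p = 0.377). Cd74, the invariant chain, differed by 0.42 ± 0.15 in KO and by 0.42 in WT, while Cd80, a costimulator, differed by -0.44 ± 0.18 in KO. Of 13 MHC class I genes 3 were higher and 1 lower without overlap (median 0.12), against 10.6% and 11.0% of all genes.

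Homeostatic microglial genes had a median of 0.00 in KO and -0.23 in WT. Of 24, 0 were higher and 2 lower without overlap, against 10.6% and 11.0% of all genes. KO cuprizone 1 alone lay below both controls in 13 of the 24 and above both in 0, against 29.0% and 30.4% of all genes. Tmem119 read 11.66, 11.83 and 11.69 in KO cuprizone and 11.85 and 11.94 in KO control, a difference of -0.17 ± 0.10 (adjusted p = 0.501). Cx3cr1, the fractalkine receptor, read 12.27, 12.37 and 12.51 in KO cuprizone and 12.40 and 12.34 in KO control, a difference of 0.01 ± 0.10. Genes of TREM2 and DAP12 signalling had 3 of 23 higher and 6 lower without overlap (median -0.07), against 10.6% and 11.0% of all genes, and the 3 again include Trem2 itself. Tyrobp differed by 0.07 ± 0.09 with overlapping arrays.

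The remaining pathway lists had medians within 0.12 of 0, and their counts are read against the 10.6% and 11.0% of all genes that were higher and lower without overlap. Without overlap, 3 of 15 complement and Fc receptor genes were higher and 1 lower. Of 19 phagocytosis receptors 1, the late DAM gene Axl, was higher and 1 lower. Of 25 cell cycle genes 6 were higher and 2 lower, and of 22 ATF4 and amino acid genes 3 were higher and 0 lower. For the antioxidant and iron list 2 of 22 were higher and 2 lower, for metal handling genes 2 of 21 and 2, and for trophic factors 2 of 11 and 2. Mtf1, the metal-sensing transcription factor, read 7.12, 7.08 and 6.96 in KO cuprizone and 7.53 and 7.60 in KO control, a difference of -0.52 ± 0.12 (adjusted p = 0.113). Mt2, one of its metallothionein targets, read 8.06, 6.82 and 6.28 in KO cuprizone and 7.69 and 8.71 in KO control, so its groups overlapped, while Mt1 differed by -0.07 ± 0.14. Hmox1, heme oxygenase, split by array at 9.93, 8.43 and 8.79 in KO cuprizone against 9.66 and 9.42 in KO control.

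**Figure D5:**
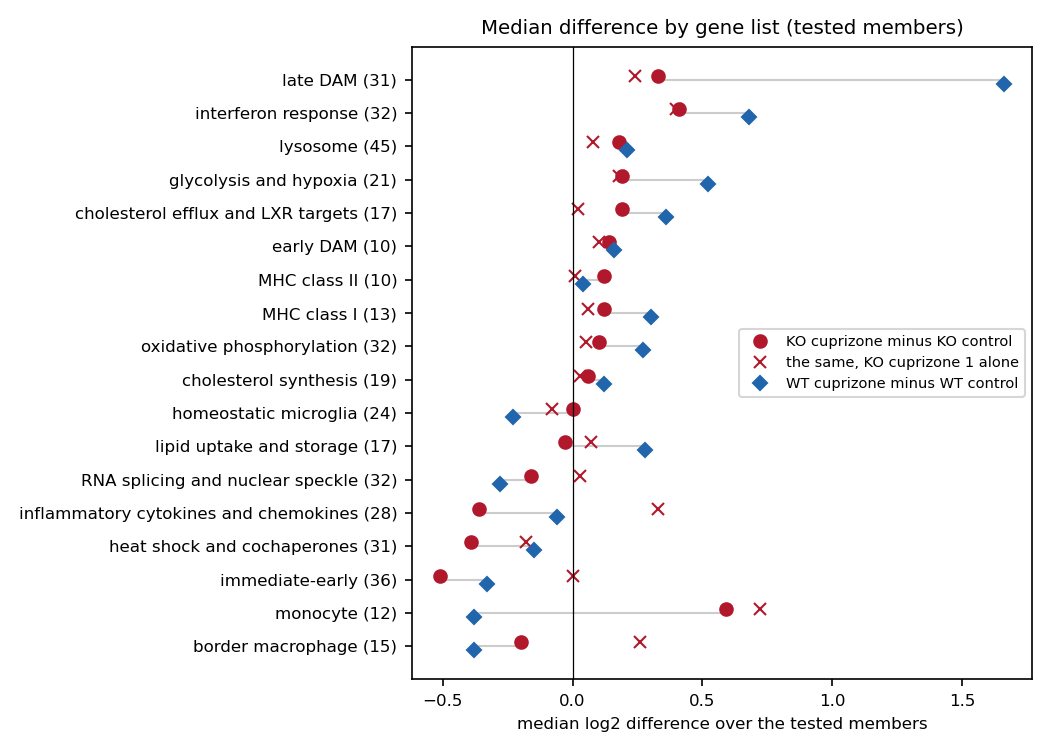
Median log2 difference over the tested members (horizontal axis) of 16 pathway and 2 marker lists, for KO cuprizone minus KO control (circles), the same with KO cuprizone 1 alone (crosses) and WT cuprizone minus WT control (diamonds). The late DAM list lies at 0.33 in KO and 1.66 in WT, the interferon list at 0.41 and 0.68, and the inflammatory list moves to 0.33 with KO cuprizone 1 alone.

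Markers of other cells were counted in the same way. Of 12 tested monocyte markers 4 were higher without overlap and 0 lower, against 10.6% and 11.0% of all genes, and the median was 0.59 in KO and -0.38 in WT. Clec12a, an inhibitory lectin of myeloid cells, read 6.86, 7.15 and 6.81 in KO cuprizone and 6.24 and 5.94 in KO control, a difference of 0.85 ± 0.19 (adjusted p = 0.0885) with a genotype difference of 1.29 ± 0.27 (adjusted p = 0.0465). Ccr2, the chemokine receptor that brings monocytes to tissue, read 6.69, 7.11 and 6.20 in KO cuprizone and 6.26 and 5.79 in KO control, with overlap. The summed intensity of all monocyte markers on the array was 2056, 1121 and 761 in KO cuprizone and 1275 and 1253 in KO control. The sum was highest on array 1 and lowest on array 3. It includes Nr4a1, which read 2.99 higher on KO cuprizone 1 than the mean of arrays 2 and 3. The mean log2 intensity of the 12 tested markers was 6.49, 6.26 and 5.72 in KO cuprizone and 5.93 and 5.66 in KO control. Array 2 thus lay above both controls by this mean and below both by the sum. The part of other myeloid cells in the late DAM and interferon values was not tested.

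Border macrophage markers had a median of -0.20, with 0 of 15 higher and 0 lower without overlap, against 10.6% and 11.0% of all genes. Their summed intensity was 4611, 2913 and 2256 in KO cuprizone and 3900 and 3788 in KO control, and the median was 0.26 for KO cuprizone 1 alone and -0.44 for arrays 2 and 3. Lyve1, a hyaluronan receptor of border macrophages, read 8.25, 7.04 and 6.80 in KO cuprizone and 8.51 and 7.78 in KO control. The summed intensity was thus highest on KO cuprizone 1, although Lyve1 itself was higher on KO control 1. Neutrophil markers had 1 of 12 higher and 2 lower without overlap (median 0.03), against 10.6% and 11.0% of all genes. The 1 higher was Chil3, which was also counted among the higher monocyte markers. The summed intensity of the neutrophil markers was 4137, 3325 and 1914 in KO cuprizone and 2755 and 2806 in KO control. The 13 microglial identity markers had 1 higher and 2 lower without overlap (median 0.01), against the same shares of all genes.

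Few markers outside the myeloid lineage passed the filter. There were 5 tested T and NK cell, 3 B cell, 8 astrocyte, 8 oligodendrocyte, 1 oligodendrocyte precursor, 1 neuron, 5 endothelial and pericyte, and 1 erythroid marker. In these lists 1 astrocyte and 1 erythroid marker were lower without overlap (11.0% of all genes) and 0 were higher (10.6% of all genes). Mbp, the myelin basic protein, read 6.38, 6.20 and 6.09 in KO cuprizone and 6.37 and 6.66 in KO control, a difference of -0.30 ± 0.14 (adjusted p = 0.371), and the groups overlapped. Among 3 tested sex-linked genes 2 were higher without overlap, against 10.6% of all genes. Eif2s3y, a Y-linked translation factor, read 7.73, 6.61 and 7.61 in KO cuprizone and 5.91 and 6.18 in KO control, and its difference of 1.28 ± 0.25 had an adjusted p of 0.0698, with a genotype difference of 1.81 ± 0.36 (adjusted p = 0.0367). Kdm5d, another Y-linked gene and the other one without overlap, read 6.45, 6.77 and 6.61 in KO cuprizone and 6.45 and 5.72 in KO control. Its lack of overlap thus rests on a difference too small to show at the decimals printed. Uty read 6.45, 6.42 and 6.54 against 6.27 and 6.43. Xist, which is transcribed from the inactive X chromosome, lay at 4.07, 4.51 and 4.01 in KO cuprizone and 4.35 and 4.22 in KO control, below the array medians on every one.

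By size alone, without regard to the lists, the largest positive differences among genes with an unadjusted p under 0.05 and no overlap were those of Mir181b-2 and Cst7. Mir181b-2, the host probe set of a microRNA, read 6.85, 6.82 and 7.33 in KO cuprizone and 5.78 and 4.05 in KO control, a difference of 2.08 ± 0.41 (adjusted p = 0.0695) in which KO control 2 stood 1.73 below KO control 1. Rfesd at 1.44 ± 0.39, Snora21 at 1.29 ± 0.30, Uevld at 1.15 ± 0.28 and H3c4 at 1.14 ± 0.37 shared this feature, with KO control 2 the lowest of the 5 arrays. Plpp1, a lipid phosphate phosphatase, read 7.10, 7.55 and 7.99 in KO cuprizone and 6.85 and 6.15 in KO control, a difference of 1.05 ± 0.23 (adjusted p = 0.0875). Among the largest negative differences outside the lists, Gimap9, a lymphoid and myeloid GTPase, read 4.55, 5.08 and 4.55 in KO cuprizone and 5.97 and 6.17 in KO control, a difference of -1.35 ± 0.37 (adjusted p = 0.135). Sertad1 at -1.17 ± 0.39 and Mras at -1.14 ± 0.31 had KO cuprizone 1 nearest to the controls and arrays 2 and 3 lower.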

How the data were processed

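RNA of sorted microglia was hybridised to Affymetrix MoGene 1.0 ST arrays. The authors deposited linear intensity values per probe set, made with RMA per the submitters' processing notes. Version, settings and genome build: not given in the sources used here. RMA gives arrays nearly equal distributions, so a change in total RNA per cell cannot be seen. The number of arrays limits the precision, and the median standard error of the KO cuprizone difference was 0.151 (log2).

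Of 28098 probe sets, 21640 name a single gene in the platform table. Log2 was taken, each gene was represented by its brightest such probe set, and 11830 of 19937 genes were tested, namely those that exceeded the 50th percentile of an array at least 2 times. Differences were tested two-sided with limma 3.58.1 in R 4.3.3, with 8 group means of all 22 arrays in one model (14 residual degrees of freedom), Benjamini-Hochberg adjustment over all genes, and a gene called below an adjusted p of 0.05. The ± values are standard errors of that model. The workflow was tested on simulated data. The Trem2 deletion was checked in all KO arrays. The 6 KO arrays whose labels contradict each other on the additives (sets A and B) enter the tests only through the spread. They are also part of the ranges given over other arrays and of the principal axes. Promoter windows came from RefSeq (GRCm38.p6), and were searched for 2 short motifs after longer forms of both, whose counts are not reported here. No genome or protein sequence was used here.

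The arrays compared and the 25 pathway and 13 marker lists were chosen with earlier results of these data known. Named genes are the called genes, up to 12 each way by size among uncalled genes with an unadjusted p under 0.05, no overlap and a group mean of at least 6, up to 4 per list by p, up to 8 by the genotype difference, up to 6 each way by gaps between arrays, and a fixed set. The labels do not state that replicate numbers pair arrays, so they were not taken to do so. Same-numbered KO cuprizone and KO control arrays correlated at -0.066 and 0.053 in their deviations. With 2 control arrays the deviations mirror each other, so these values cannot show or exclude pairing. Alternatives tried were a block for the replicate number, a fit of the compared arrays alone, other filters, normalizations, probe set summaries, variance models and call rules, array weights, 2 treatments of the arrays low in immediate-early genes, and leaving out each array. Leaving out WT arrays, and list medians by single array, were added after seeing the data.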

Additional observations from a re-analysis of the deposited data

Results flagged for a closer look

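The cuprizone difference differed between KO and WT, by the test of the difference itself, at 27 genes. Beside the genes described above, in order of log2 difference (KO minus WT), it was more negative in KO for Bhlhe40 at -2.77, Gpnmb at -2.77, Capg at -2.15, Csf1 at -1.85, Igf1 at -1.78, Rab7b at -1.71, Vat1 at -1.70, Olr1 at -1.61, Ephx1 at -1.58, Rai14 at -1.53, Gla at -1.39, H2-Q5 at -1.10, Aplp2 at -0.97 and Cxcl16 at -0.80. H2-Q5 differed by -0.61 in KO and by 0.49 in WT. The genes described above were Itgax at -2.88, Mmp12 at -2.82, Lpl at -2.56, Axl at -2.19, Fam20c at -2.10, Lgals3 at -1.98, Clec7a at -1.85 and Alcam at -1.41.

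The difference was more positive in KO for Eif2s3y at 1.81, Clec12a at 1.29, Zranb1 at 1.17, Csmd3 at 0.92 and Maml2 at 0.83.

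Cst7 read at least 8.54 and at most 8.82 on the 3 arrays of KO set B, which formed no group of a tested difference here because their labels contradict each other. The KO cuprizone arrays reached 8.58 and the KO control arrays 6.20.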

How the results depend on the processing

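The count of 5 genes called between KO cuprizone and KO control was 0 with an adjusted p under 0.01, with no filter on dim genes, with a gene's probe sets averaged, with array weights, with the immediate-early mean as covariate and with only the arrays of the groups compared. By limma, the 11 refits that gave 0 calls, the block included, left 758 to 2171 genes at an unadjusted p under 0.05, and the adjusted p under 0.01 keeps the reported 1591. The count was 15 with the filter at the 75th percentile, 11 with quantile normalization and 9 without the 3 arrays low in immediate-early genes, a setting that keeps 1 of the 5. Leaving out each array gave 0 to 765. With the replicate number as a block it was 0, and the highest adjusted p of the 5 genes was 0.112; the numbers are not taken to pair the arrays. The block left 20 of the 27 genotype differences in count. That count was 7 at an adjusted p under 0.01, 12 with array weights, 86 with the immediate-early mean as covariate and 4 with only the arrays compared, and leaving out each array gave 6 to 265. The cause of these changes was not tested.

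Values of genes that were not called changed sign as follows. Without the 3 low arrays Cx3cr1 was -0.10, Gpnmb -0.15, Hmox1 0.39, Hspa1a 0.09, Mt1 0.16, P2ry12 -0.09 and Tyrobp -0.03. With the immediate-early covariate Gpnmb was -0.27 and Trem2 -0.04. With quantile normalization Cx3cr1 was -0.03, P2ry12 -0.01 and Tyrobp -0.01. Leaving out each array gave -0.01 to 0.29 for Apoe, -0.05 to 0.07 for Cx3cr1, -0.19 to 0.03 for Mt1 and -0.02 to 0.06 for P2ry12. The 5 called genes kept their sign in every setting run. The fall of Trem2 in KO control kept its sign and its call in every setting run. With 2 KO control arrays that differ 2-fold or more at 268 genes, small differences could not be detected.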
